A study of Mus musculus with 8 samples.

Results

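The hnRNP and SR genes encode the abundant nuclear RNA-binding proteins that steer the choice of splice sites. They were taken from the deposited gene table by name, as every gene whose symbol begins with Hnrnp and a further letter or with Srsf and a digit and whose counts over the 8 libraries summed to at least 100. The pattern matched 32 of 43346 genes, and 1 was dropped as a pseudogene by its name (Hnrnpa1l2-ps, 11 counts in all), which left 31 members, 20 hnRNP and 11 SR genes. Their summed counts ran from 10525 for Srsf12 to 238182 for Hnrnpu, and all 31 passed the filter on low counts.

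Cortex and hippocampus were taken at an age of 1.5 months from 4 mice of genotype GFP and 4 of genotype GFP-GR100, with 2 females (replicates 1 and 2) and 2 males (replicates 3 and 4) in each group. GFP-GR100 is green fluorescent protein fused to 100 glycine-arginine dipeptides, the poly(GR) protein made from the expanded C9orf72 repeat of amyotrophic lateral sclerosis and frontotemporal dementia. The sequence was placed in an adeno-associated virus plasmid, and the GFP animals expressed green fluorescent protein without the repeat, so both groups carried GFP. No source used here names the driving promoter, the route and time of delivery or the share of cells that expressed the protein, and no group without GFP was analysed. Each library was made from 1 animal, with total RNA of the whole tissue.

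hnRNP proteins bind nascent transcripts along their length and often block the use of a splice site, whereas SR proteins carry a domain rich in arginine and serine and mostly bind exonic enhancers, where they recruit the spliceosome. Many of them adjust their own level by splicing a poison exon into their transcript, which sends it to nonsense-mediated decay. Several hnRNPs, among them hnRNP A1, A2/B1, A3 and H, carry low-complexity domains or bind C9orf72 repeat RNA, and mutations in the genes of hnRNP A1 and A2/B1 cause inherited disease of motor neurons and muscle, which is why their levels are of interest beside an arginine-rich repeat protein.

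Total counts were between 65880460 and 89113010 per library, and the members took 0.378% to 0.417% of them. Counts at loci carrying ribosomal RNA sequence (Yam1, AY036118 and Lars2) took between 2.76% and 11.4% and were higher in GFP females (11.4% and 6.74%) and GFP-GR100 males (8.77% and 9.83%) than in GFP males (3.80% and 3.54%) and GFP-GR100 females (3.20% and 2.76%), the same pattern that a difference of the group effect between sexes would have. Markers of excitatory neurons were present in every library (3849 to 5706 summed CPM over 8 genes, CPM being counts scaled to a common library total), and no gene of the 10 cell type lists was at 0 counts throughout. Summed microglial markers were 410 to 598 CPM in GFP and 742 to 845 CPM in GFP-GR100, with 8 of 10 genes called higher. GFP 3 had the highest microglial sum of its group (598 CPM), and GFP-GR100 4 the lowest excitatory sum of all (3849 CPM). Choroid plexus markers ran the other way, at 122 to 349 CPM in GFP and 28.2 to 82.5 CPM in GFP-GR100 (2 of 6 genes called lower), as did those of ependyma (13.5 to 23.6 and 10.7 to 12.5 CPM, 2 of 5 called lower). Oligodendrocyte markers were at 6328 to 8320 CPM in GFP and 5250 to 8168 CPM in GFP-GR100 (0 of 8 called, all 8 below 0, 4 with an unadjusted p under 0.05 in edgeR), and those of their precursors at 216 to 225 and 178 to 222 CPM (1 of 5 called lower). Astrocyte markers were at 3236 to 4243 and 3865 to 4716 CPM (1 of 8 called higher, all 8 above 0). The part of these cell types in the members' values was not tested. In whole tissue, fewer cells of a type and less RNA per cell cannot be told apart. The recorded brain weight was 71.9 to 85.1 mg in GFP-GR100 against 111.4 to 126.6 mg in GFP.

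Levels were first compared between genes, per length, as the mean deposited RPKM over the 8 libraries. Hnrnpa2b1, which encodes a protein of RNA transport and splicing, stood highest at 88.1 RPKM (80.9 to 94.6 over libraries). It was followed by its relative Hnrnpa1 at 60.4 RPKM, then Hnrnpc, whose protein packages nascent transcripts and keeps splicing factors off uridine-rich sites, at 56.1 RPKM, and the poly(C)-binding Hnrnpk at 55.3 RPKM. The lowest were Hnrnpll, the relative of Hnrnpl known from lymphocytes, at 4.88 RPKM (4.45 to 5.43), and Srsf12 at 5.39 RPKM (4.90 to 5.69). The highest and lowest members thus differed 18.0 times. Among SR genes the order began with Srsf5 (36.9 RPKM), Srsf7 (34.5 RPKM) and Srsf2 (32.8 RPKM) and ended with Srsf10 (7.43 RPKM) and Srsf12. The median hnRNP gene was at 31.9 RPKM and the median SR gene at 20.5 RPKM, beside a median of 3.72 RPKM over all tested genes. Of the 30 pairs of neighbours in this order, 5 had ranges over the 8 libraries that did not overlap: Hnrnpa2b1 above Hnrnpa1, Hnrnpk above Hnrnpu, Hnrnpf above Hnrnph3, Hnrnph3 above Hnrnpr, and Srsf10 above Srsf12. The other neighbours had ranges that overlapped. The spread over libraries includes the changing share of ribosomal loci, since RPKM was scaled to all counts. These neighbours were not compared within each library, so overlapping ranges do not show that their levels were equal.

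**Figure D1:**
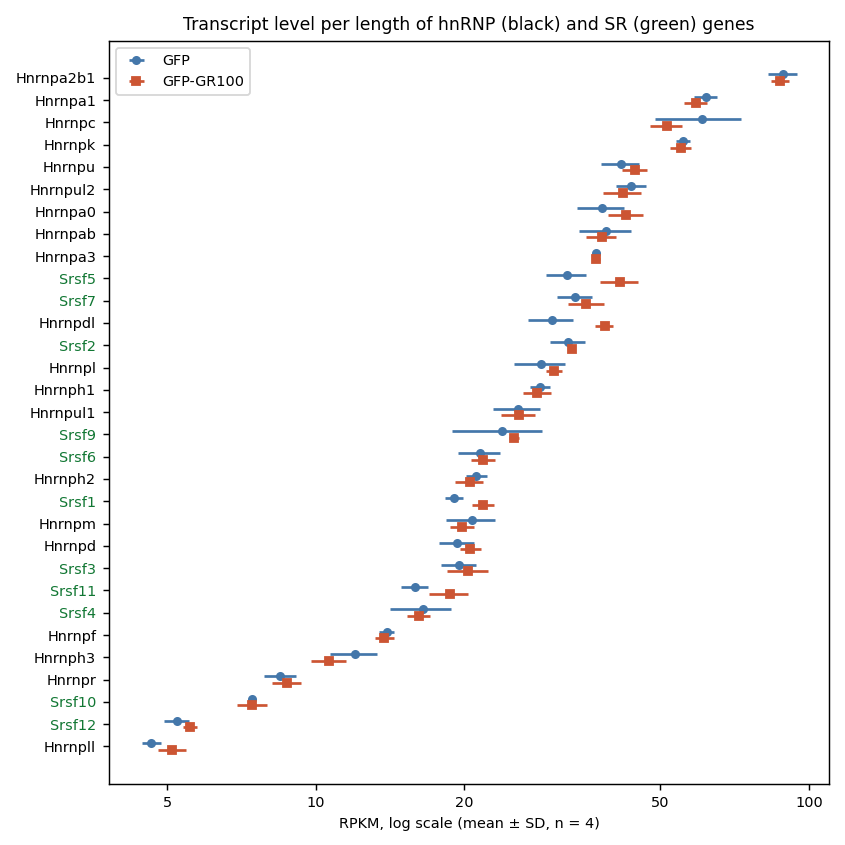
Deposited RPKM of the 31 genes on a log axis (mean ± SD, n = 4 per group; circles GFP, squares GFP-GR100), ordered by the mean over 8 libraries. Hnrnpa2b1 is at the top at 88.1 RPKM and Hnrnpll at the bottom at 4.88 RPKM.

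The main comparison asked whether the transcripts of these splicing proteins differ between GFP-GR100 and GFP brains. None of the 31 members passed the edgeR quasi-likelihood test at an adjusted p of 0.05, where 2.52% of all 20987 tested genes did (460 higher, 2.19%, and 68 lower, 0.324%). DESeq2, limma-voom and limma-trend on RPKM also called 0 members. Unadjusted p was under 0.05 for 4 members, 2 higher (Srsf5 and Hnrnpdl) and 2 lower (Hnrnpc and Hnrnph3), which is 12.9% of the members beside 15.6% of all tested genes (8.23% higher and 7.37% lower), and DESeq2, limma-voom and limma-trend each also had 4. The groups did not overlap for 2 members, Srsf5 and Hnrnpdl, both higher in GFP-GR100, or 6.45%, beside 8.06% of all tested genes (5.03% higher and 3.03% lower). Neither share stood above that of all genes.

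The differences were small in size. The median absolute log2 fold change of the members was 0.08 against 0.15 over all tested genes. The members' standard errors (SE) ran from 0.07 to 0.10, with a median of 0.08 against 0.13 over all tested genes. The lowest member stood at percentile 55.9 of RPKM among tested genes, and the comparison with all genes was not matched for level. For 30 of the 31 members the 95% interval of the log2 fold change lay within 0.5 of 0, the exception being Hnrnpdl with an upper bound of 0.51, and for 22 it lay within 0.3. Among all 20987 tested genes it lay within 0.5 for 11869 and within 0.3 for 4688. The lowest bound of any member was -0.47 (Hnrnpc). Log2 fold changes were above 0 for 12 members and below 0 for 19 (38.7% above 0, beside 45.4% of all tested genes), with limma-trend on RPKM giving 18 above and 13 below. Medians were -0.08 for hnRNP genes, 0.01 for SR genes and -0.02 for all tested genes, and the hnRNP median kept its sign under every scaling, filter, tool and left-out library tried, whereas the SR median was -0.0043 without GFP-GR100 3.

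**Figure D2:**
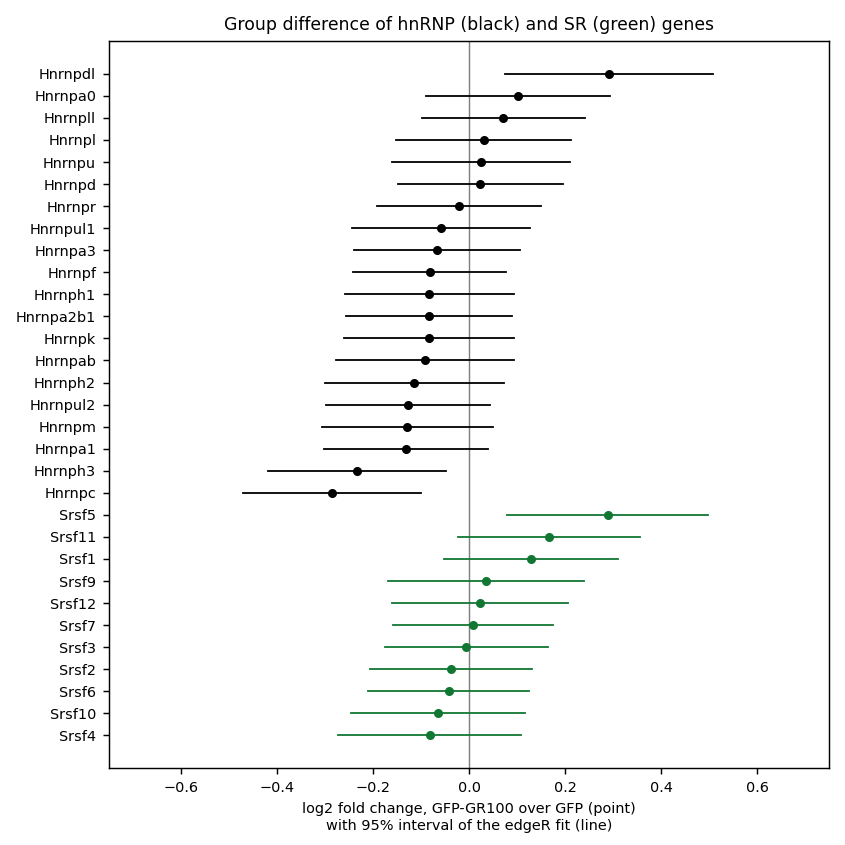
Difference between GFP-GR100 and GFP on the log2 scale for each hnRNP gene (black) and SR gene (green), with the 95% interval of the edgeR fit as a line. Intervals that do not reach 0 belong to Hnrnpdl, Srsf5, Hnrnpc and Hnrnph3, none of which passed the adjusted threshold.

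Those 4 genes are described first, with the 250 bases before a RefSeq transcription start, since they were the members with an unadjusted p under 0.05. Sequences are from RefSeq on GRCm38.p6, the build of mm10, written 5′ to 3′ on the strand of the gene and ending at the base before the start. Capitals mark CCAAT boxes (CCAAT, or ATTGG on the other strand) and GC boxes (GGGCGG, or CCGCCC), common elements of housekeeping promoters. The stretches are at chr12:80945249-80945498 (plus strand, Srsf5), chr5:100039223-100039472 (minus strand, Hnrnpdl), chr14:52104022-52104271 (minus strand, Hnrnpc) and chr10:63023850-63024099 (minus strand, Hnrnph3). Those of Hnrnpdl and Hnrnph3 lie wholly inside the deposited bounds of their genes, which begin upstream at 100039664 and 63024217. For these genes the RefSeq start is thus downstream of the deposited one, and the stretch may itself be transcribed.
Srsf5: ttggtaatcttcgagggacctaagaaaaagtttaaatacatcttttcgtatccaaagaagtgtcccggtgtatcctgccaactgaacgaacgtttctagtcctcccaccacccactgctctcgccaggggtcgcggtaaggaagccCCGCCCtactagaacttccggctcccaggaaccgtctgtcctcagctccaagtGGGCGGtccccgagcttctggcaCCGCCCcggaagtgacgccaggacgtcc
Hnrnpdl: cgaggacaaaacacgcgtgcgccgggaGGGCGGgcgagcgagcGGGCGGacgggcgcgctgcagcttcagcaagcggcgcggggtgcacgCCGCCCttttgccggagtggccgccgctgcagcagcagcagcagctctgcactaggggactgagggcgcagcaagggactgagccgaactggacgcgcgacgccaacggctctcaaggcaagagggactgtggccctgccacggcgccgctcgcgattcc
Hnrnpc: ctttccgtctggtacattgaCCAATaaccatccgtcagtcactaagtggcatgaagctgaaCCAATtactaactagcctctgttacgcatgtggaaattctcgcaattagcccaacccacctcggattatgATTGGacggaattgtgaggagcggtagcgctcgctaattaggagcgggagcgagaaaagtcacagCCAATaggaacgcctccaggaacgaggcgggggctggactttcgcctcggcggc
Hnrnph3: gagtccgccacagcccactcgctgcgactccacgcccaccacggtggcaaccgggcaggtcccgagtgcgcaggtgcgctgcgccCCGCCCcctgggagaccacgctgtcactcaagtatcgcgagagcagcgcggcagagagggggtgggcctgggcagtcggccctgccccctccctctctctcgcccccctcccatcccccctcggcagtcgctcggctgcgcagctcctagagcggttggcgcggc
Srsf5 and Hnrnpdl have 3 GC boxes each and no CCAAT box here, Hnrnpc has 4 CCAAT boxes and no GC box, and Hnrnph3 has 1 GC box. The matches describe the letters only.

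Srsf5 (chr12:80945504-80950507 on mm10) encodes an SR protein that promotes exon inclusion. Its level was 133.6, 140.3, 138.7 and 115.5 CPM in GFP 1 to 4 and 148.0, 158.3, 156.4 and 182.7 CPM in GFP-GR100 1 to 4. All 4 GFP-GR100 libraries were above all GFP libraries, with the widest gap between GFP 4 and GFP-GR100 4, both males. The means were 132.0 ± 11.4 and 161.3 ± 14.9 CPM (SD, n = 4 each), a log2 fold change of 0.29 (SE 0.10, 95% interval 0.08 to 0.50), with an unadjusted p of 0.0109 and an adjusted p of 0.174 in edgeR.

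Hnrnpdl (chr5:100033577-100039664) encodes the hnRNP D-like protein, a regulator of splicing and mRNA stability whose mutation causes a limb-girdle muscular dystrophy. It was at 164.7, 154.7, 152.3 and 122.9 CPM in GFP 1 to 4 and at 172.8, 175.5, 196.0 and 181.9 CPM in GFP-GR100 1 to 4. Again every GFP-GR100 library was above every GFP library, and GFP 4 was lowest. The log2 fold change was 0.29 (SE 0.10, 95% interval 0.08 to 0.51) and the adjusted p in edgeR 0.183.

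Hnrnpc (chr14:52073380-52104028) had the smallest p of all members. Its level was 155.9, 148.8, 208.4 and 197.1 CPM in GFP 1 to 4 and 143.9, 126.4, 152.7 and 155.0 CPM in GFP-GR100 1 to 4. Females were lower than males in both groups, and GFP-GR100 males at 152.7 and 155.0 CPM lay between the 2 GFP females, so that the groups overlapped. Within each sex the GFP-GR100 libraries were the lower. The means were 177.5 ± 29.6 and 144.5 ± 13.0 CPM (SD, n = 4 each), a log2 fold change of -0.29 (SE 0.09, 95% interval -0.47 to -0.10), with an unadjusted p of 0.00565 and an adjusted p of 0.125 in edgeR. With the share of counts at the ribosomal loci as a covariate, the log2 fold change was the same to 2 decimals (-0.29) and the adjusted p was 0.04998, the single call of a member under any alternative, while without GFP 3 and GFP-GR100 4 the log2 fold change was -0.21 (adjusted p 0.275).

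Hnrnph3 (chr10:63014664-63024217) encodes a short member of the G-run binding hnRNP H and F proteins. It was at 35.1, 37.8, 40.8 and 40.8 CPM in GFP 1 to 4 and at 33.8, 31.7, 30.1 and 35.7 CPM in GFP-GR100 1 to 4. The groups overlapped only through GFP 1 and GFP-GR100 4. The log2 fold change was -0.23 (SE 0.09, 95% interval -0.42 to -0.05) and the adjusted p in edgeR 0.215. Rufy2, on the opposite strand, shares 2547 bases with Hnrnph3 and had 212% of its counts, and the sources used here do not say whether counting used strand.

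**Figure D3:**
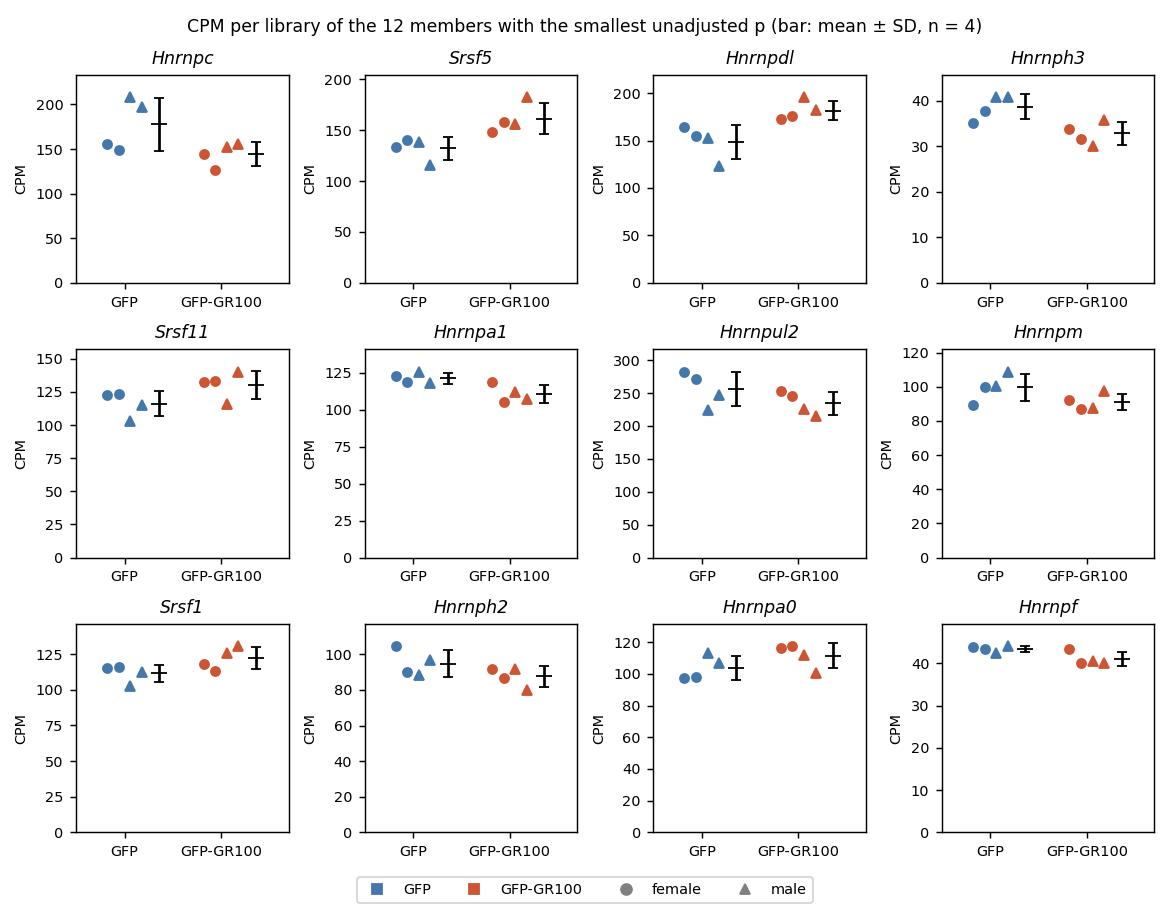
CPM in each library (circles females, triangles males) of the 12 members with the smallest unadjusted p, with the mean ± SD (n = 4) beside each group and axes from 0. Only Srsf5 and Hnrnpdl have groups that do not overlap, and Hnrnpc is split by sex in both groups.

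Among the hnRNPs tied to C9orf72 repeat RNA or to inherited disease, Hnrnpa1 (chr15:103240432-103244955) was at 122.6, 118.8, 125.9 and 118.2 CPM in GFP 1 to 4 and at 118.9, 105.0, 111.8 and 107.5 CPM in GFP-GR100 1 to 4. Only GFP-GR100 1 reached the GFP range. Its log2 fold change was -0.13 (SE 0.08, 95% interval -0.30 to 0.04, adjusted p 0.434 in edgeR), with -0.11 in females and -0.15 in males. With each library left out in turn it ran from -0.15 to -0.08, the latter without GFP 3 or GFP-GR100 2. Hnrnpa2b1 was at 359.3, 366.7, 382.6 and 372.8 CPM in GFP and at 362.6, 322.8, 358.0 and 355.2 CPM in GFP-GR100. Its groups overlapped in GFP-GR100 1, and GFP-GR100 2 was the lowest library. The log2 fold change was -0.08 (95% interval -0.26 to 0.09, adjusted p 0.628 in edgeR), with -0.08 in females and -0.08 in males. With each library left out in turn it ran from -0.09 to -0.03, the latter without GFP-GR100 2.

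Hnrnpa3, whose protein binds the C9orf72 repeat RNA, was at 220.2, 201.1, 196.8 and 199.3 CPM in GFP and at 193.1, 190.4, 204.2 and 192.0 CPM in GFP-GR100. The groups overlapped through GFP-GR100 3, and the log2 fold change was -0.07 (95% interval -0.24 to 0.11, adjusted p 0.701 in edgeR). With each library left out in turn it ran from -0.10 to -0.03, the latter without GFP 1, GFP-GR100 1 or GFP-GR100 2. Hnrnph1, the main hnRNP H gene, was at 168.5, 173.4, 170.3 and 169.0 CPM in GFP and at 167.8, 148.8, 154.5 and 172.1 CPM in GFP-GR100. GFP was tightly grouped (coefficient of variation 1.30%, the smallest of any member) and GFP-GR100 4 alone reached its range. The log2 fold change of Hnrnph1 was -0.08 (95% interval -0.26 to 0.09, adjusted p 0.634 in edgeR). With each library left out in turn it ran from -0.12 to -0.03, the latter without GFP-GR100 2. Hnrnpf was at 44.0, 43.3, 42.4 and 44.0 CPM in GFP (coefficient of variation 1.69%) and at 43.4, 40.0, 40.6 and 40.1 CPM in GFP-GR100. GFP-GR100 1 alone reached the GFP range, and the log2 fold change was -0.08 (adjusted p 0.598 in edgeR). The X-linked Hnrnph2 was at 104.5, 89.8, 88.2 and 96.8 CPM in GFP and at 92.0, 86.8, 91.8 and 79.9 CPM in GFP-GR100, with overlapping groups and a log2 fold change of -0.11 (adjusted p 0.534 in edgeR).

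The remaining hnRNP genes of the 12 with the smallest p were Hnrnpul2, Hnrnpm and Hnrnpa0. Hnrnpul2, a relative of the scaffold attachment factor hnRNP U, was at 282.6, 271.4, 224.3 and 247.5 CPM in GFP and at 252.4, 245.3, 225.1 and 215.5 CPM in GFP-GR100. Females were above males in each group and the groups overlapped, with a log2 fold change of -0.13 (adjusted p 0.45 in edgeR). Hnrnpm, which encodes a splicing factor binding GU-rich RNA, was at 89.6, 99.8, 100.5 and 108.9 CPM in GFP and at 92.4, 86.9, 87.6 and 97.5 CPM in GFP-GR100. The groups overlapped, and the log2 fold change was -0.13 (adjusted p 0.462 in edgeR). Hnrnpa0, whose protein binds AU-rich elements, was at 97.7, 98.0, 113.4 and 107.0 CPM in GFP and at 116.1, 117.4, 112.2 and 100.3 CPM in GFP-GR100. The GFP-GR100 females lay above all GFP libraries and the males did not, and over both sexes the log2 fold change was 0.10 (adjusted p 0.59 in edgeR). Hnrnpll, the lowest by RPKM, was at 61.7, 57.0, 51.5 and 52.4 CPM in GFP and at 59.6, 60.8, 59.8 and 53.3 CPM in GFP-GR100, overlapping, with a log2 fold change of 0.07 (adjusted p 0.672 in edgeR).

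Of the other SR genes, Srsf11, an SR protein with a neuronal role in microexon inclusion, was at 122.9, 123.5, 103.1 and 115.3 CPM in GFP and at 132.2, 132.9, 115.6 and 140.3 CPM in GFP-GR100. GFP-GR100 3 lay within the GFP range and the other 3 lay above it, with a log2 fold change of 0.17 (SE 0.09, 95% interval -0.02 to 0.36, adjusted p 0.372 in edgeR). With each library left out in turn it ran from 0.10 (without GFP-GR100 4) to 0.21 (without GFP 4). Srsf1, the founding SR protein and an adaptor in the nuclear export of C9orf72 repeat transcripts, was at 115.4, 115.8, 102.7 and 112.4 CPM in GFP and at 118.3, 113.2, 126.2 and 130.6 CPM in GFP-GR100. The GFP-GR100 males were highest and GFP-GR100 2 lay within the GFP range, and the log2 fold change was 0.13 (95% interval -0.05 to 0.31, adjusted p 0.469 in edgeR).

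Srsf2, a sensor of exonic enhancers found in nuclear speckles, was at 94.0, 103.1, 102.5 and 93.8 CPM in GFP and at 94.8, 92.5, 99.5 and 96.5 CPM in GFP-GR100. The groups overlapped, with a log2 fold change of -0.04 (95% interval -0.21 to 0.13, adjusted p 0.835 in edgeR). Srsf12, the least abundant SR gene, was at 17.5, 15.7, 16.5 and 17.7 CPM in GFP and at 16.2, 16.8, 17.9 and 17.5 CPM in GFP-GR100, again overlapping, with a log2 fold change of 0.02 (95% interval -0.16 to 0.21, adjusted p 0.913 in edgeR).

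The other 13 members were Hnrnpk, Hnrnpu, Hnrnpab, Hnrnpl, Hnrnpul1, Hnrnpd, Hnrnpr, Srsf3, Srsf4, Srsf6, Srsf7, Srsf9 and Srsf10. Their log2 fold changes lay between -0.09 and 0.03, 5 above and 8 below 0, with adjusted p from 0.614 to 0.976 in edgeR and interval bounds from -0.28 to 0.24. A change of 0.3 on the log2 scale was thus outside the 95% interval of each of these genes. Hnrnpu, the scaffold attachment factor with the highest counts, was at 322.9 to 428.6 CPM in GFP and at 371.8 to 408.5 CPM in GFP-GR100, and Srsf3, a small SR protein of export and splicing, at 96.9 to 105.8 and 89.8 to 115.4 CPM.

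Summed over each family, the hnRNP genes held 3210, 3126, 3113 and 3109 CPM in GFP 1 to 4 and 3129, 2968, 3069 and 2968 CPM in GFP-GR100 1 to 4. The group means were 3139 ± 47.7 and 3033 ± 79.3 CPM (SD, n = 4 each), 3.38% apart, and GFP-GR100 1 lay above 3 of the 4 GFP libraries. SR genes together held 892, 914, 914 and 909 CPM in GFP and 923, 907, 963 and 1012 CPM in GFP-GR100, with means of 907 ± 10.2 and 951 ± 46.6 CPM, 4.83% apart. The SR sums were highest in the GFP-GR100 males and lowest in GFP 1. The part of the ribosomal share in these sums was not tested. Both families' groups overlapped, and the sums are given as a description.

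**Figure D4:**
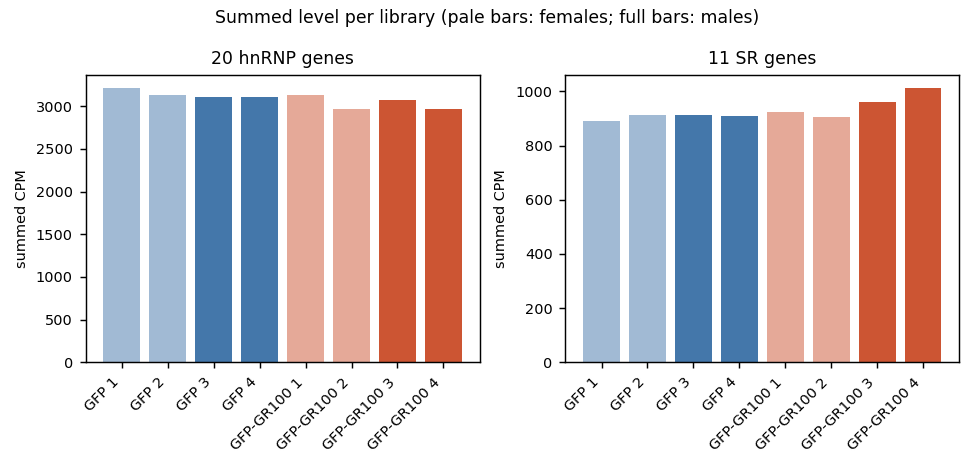
Summed CPM of the 20 hnRNP genes (left) and the 11 SR genes (right) in each library, axes from 0 (pale bars females, full bars males). The hnRNP sums run from 2968 to 3210 CPM and the SR sums from 892 to 1012 CPM, with overlapping groups in both.

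Ratios of related genes within a library do not depend on how libraries are scaled. Of 11 pairs, chosen after the single-gene values were seen, Srsf5 over Srsf6 had groups that did not overlap, at 1.23 to 1.67 in GFP and 1.73 to 1.99 in GFP-GR100 (ratio of RPKM). Hnrnpd over Hnrnpdl was 0.556 to 0.719 in GFP and 0.483 to 0.574 in GFP-GR100, Hnrnph1 over Hnrnph3 was 2.24 to 2.59 and 2.54 to 2.77, and Srsf5 over Srsf4 was 1.56 to 2.28 and 2.21 to 2.99, each of these 3 pairs with a narrow overlap. Srsf3 over Srsf7, by contrast, lay between 0.563 and 0.598 in all 8 libraries. Each of these ratios but the last contains 1 of the 4 genes with an unadjusted p under 0.05, so they are no further evidence on it.

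A second comparison asked whether the group difference depends on sex. The product of sex and group was called for 0 members in edgeR, where 0.0524% of all genes were, and had an unadjusted p under 0.05 for 1 member beside 16.4% of all genes. That member was Srsf4, an SR protein with a long arginine-serine domain, with a log2 fold change of 0.08 in females and -0.25 in males (p 0.0356, adjusted p 0.269 in edgeR). It was at 52.4, 56.9, 63.8 and 66.2 CPM in GFP 1 to 4 and at 59.8, 56.0, 55.0 and 54.6 CPM in GFP-GR100 1 to 4, so that GFP males were highest. Log2 fold changes had the same sign in both sexes for 17 of 31 members. Srsf5 (0.16 in females, 0.42 in males), Hnrnpdl (0.13 and 0.46), Hnrnpc (-0.17 and -0.40) and Hnrnph3 (-0.15 and -0.31) were each larger in males, with interaction p-values in edgeR of 0.159, 0.0663, 0.154 and 0.338 before adjustment. The ribosomal share is high in the same libraries that a product of sex and group sets apart, and its part in these values was not tested.

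Between males and females, over both groups, edgeR called 0 members, beside 4.18% of all genes, and 7 had an unadjusted p under 0.05, beside 25.2% of all genes. Hnrnpc was closest, with 0.30 higher log2 expression in males (SE 0.09, adjusted p 0.0622 in edgeR), which corresponds to 143.7 CPM in females and 178.3 CPM in males.

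Other genes of the splicing machinery were examined in 9 lists by role, with 148 of 149 genes tested. In these lists edgeR called 1 gene higher and none lower, and 5 higher and 13 lower had an unadjusted p under 0.05. These are 0.676% called higher, beside 2.19% of all tested genes, and 3.38% higher and 8.78% lower at the unadjusted p, beside 8.23% and 7.37% of all. DESeq2 called 1 higher and 1 lower. The gene that rose was Cirbp (chr10:80165985-80172786), which encodes the cold-inducible RNA-binding protein and was 1 of 14 genes in the list of other hnRNP genes. It was at 48.8, 49.5, 51.6 and 39.4 CPM in GFP 1 to 4 and at 62.3, 75.4, 76.6 and 66.5 CPM in GFP-GR100 1 to 4, so every GFP-GR100 library lay above every GFP library. The log2 fold change was 0.57 (SE 0.11, 95% interval 0.34 to 0.80, adjusted p 0.00999 in edgeR), with 0.49 in females and 0.65 in males. Without GFP-GR100 3 the adjusted p was 0.0530.

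In the lists of proteins that work with the members, no gene passed the edgeR test. Among 12 kinases and importers of SR proteins (median log2 fold change -0.02), Clk4, a kinase that phosphorylates SR proteins, had the smallest p, at 39.2, 47.4, 38.3 and 35.4 CPM in GFP and 46.5, 47.0, 52.7 and 61.5 CPM in GFP-GR100 (log2 fold change 0.37, adjusted p 0.143). GFP 2 lay within the GFP-GR100 range. Rsrp1, an arginine- and serine-rich protein, led the 27 SR-related genes (list median 0.06), with 227.7 to 278.2 CPM in GFP and 287.5 to 356.7 CPM in GFP-GR100, which did not overlap (log2 fold change 0.30, adjusted p 0.176). Of the 8 genes of FET proteins, TDP-43 and paraspeckles (median -0.05), Taf15 had the smallest p (log2 fold change -0.12, adjusted p 0.458), and 0 had an unadjusted p under 0.05 in edgeR. Nova2, a neuronal splicing regulator, led 23 tested tissue regulators (median 0.01) with a log2 fold change of 0.25 and an adjusted p of 0.229. In that list 2 genes higher and 4 lower had an unadjusted p under 0.05 in edgeR (26.1%, beside 15.6% of all tested genes).

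The core of the spliceosome lay mostly below 0 over all 8 libraries without passing the test. Of 25 genes of the U1 and U2 particles, 20 had log2 fold changes below 0 (median -0.11), and of 15 genes of the U4/U6.U5 particle 14 did (median -0.14). Of all 20987 tested genes, 11449 lay below 0 (median -0.02). The unadjusted p in edgeR was under 0.05 for 1 of the 25 U1 and U2 genes (4%) and 4 of the 15 tri-snRNP genes (26.7%). All of these were lower, beside 7.37% lower and 8.23% higher of all tested genes. GFP 3 and GFP-GR100 4, both males, had the highest microglial sum in GFP and the lowest excitatory sum of all. Without these 2 libraries, 11 of the 25 U1 and U2 genes lay below 0 (median 0.02). So did 11 of the 15 tri-snRNP genes (median -0.09). No other pair was left out, and this refit keeps 1 male in each group. Removing either of these 2 libraries alone also brought the U1 and U2 median nearest 0. The refit without both is therefore no test of the pattern, and the part of cell types was not tested. With 1 library left out, the U1 and U2 median ran from -0.14 (without GFP-GR100 3) to -0.04 (without GFP 3), and was -0.05 without GFP-GR100 4. The tri-snRNP median ran from -0.18 (without GFP 1) to -0.07 (without GFP 4). Within females the U1 and U2 median was 0.0048 and within males -0.23, and the tri-snRNP medians were -0.08 and -0.23. This split by sex was not tested for the lists, and neither was the part of the ribosomal share in it. The smallest p in these lists belonged to Snrpa, a U1 protein (log2 fold change -0.29, adjusted p 0.2504), and to Usp39, needed to assemble the tri-snRNP. Usp39 was at 29.8, 29.7, 34.8 and 33.4 CPM in GFP and at 27.3, 24.0, 25.3 and 22.9 CPM in GFP-GR100, which did not overlap (log2 fold change -0.36, adjusted p 0.0611 in edgeR). In the 15 genes of nonsense-mediated decay and the exon junction complex the median was -0.03, with Smg8 at -0.26 (adjusted p 0.336), and in the 9 arginine methyltransferases, the enzymes that modify hnRNPs, it was -0.16, with Prmt7 at -0.19 (adjusted p 0.295). The methyltransferase median was 0.0051 within females and -0.32 within males. Over both sexes with 1 library left out, it ran from -0.20 (without GFP 1 or GFP-GR100 1) to -0.08 (without GFP 3).

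**Figure D5:**
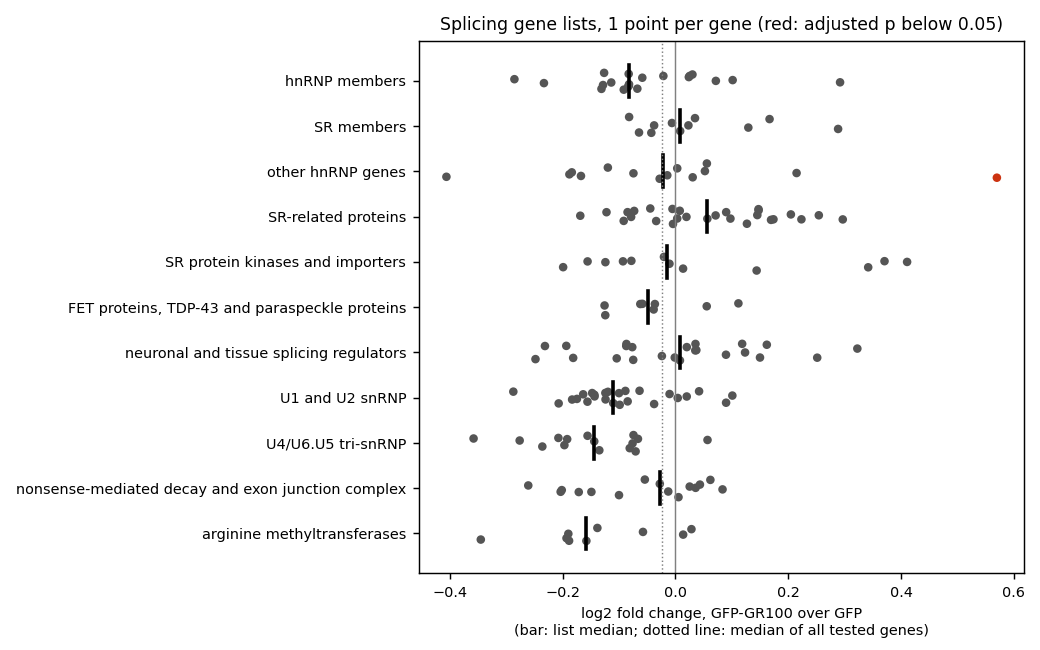
Difference between GFP-GR100 and GFP on the log2 scale for each gene of the 2 member families and the 9 lists of related genes, with the list median as a bar and the median of all tested genes as a dotted line. The single red point is Cirbp at 0.57, and the U1 and U2 and the tri-snRNP genes lie mostly below 0. Without both GFP 3 and GFP-GR100 4, which keeps 1 male per group, the medians were 0.02 for U1 and U2 and -0.09 for the tri-snRNP.

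Counting could mix some members with other genes. In the deposited positions 12 members overlap another listed gene, for instance Hnrnpu with Gm28062 (74.7% as many counts), Srsf4 with Gm12992 (78.7%), Hnrnpab with Phykpl (55.4%) and Srsf2 with Mettl23 (47.5%). Hnrnpm shares 1169 bases with a protein-coding gene on its own strand, which had 66.0% as many counts. Another gene elsewhere shared at least 200 bases at 95% identity or more with 10 members, and these copies had at most 9.13% as many counts as the member, a value reached by 1 pseudogene of Hnrnph2. It was 5.74% for 7 pseudogenes of Hnrnpa1, 5.29% for 1 of Hnrnpc and 5.12% for 1 of Srsf5, and Hnrnpdl had neither an overlap nor a copy by these criteria. Gene-level counts also do not separate a productive transcript from one with a poison exon.

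The promoters of the members were mostly, but not all, rich in GC. RefSeq windows of 300 bases (250 before and 50 from the start, GRCm38.p6) were found for 29 members, 41 windows in all, some of which overlap within a gene. Their GC content ran from 48.3% (Hnrnpa1) to 79.7% (Hnrnpa0) with a median of 68.3%, beside a median of 52.7% over all 32851 windows, and they held a median of 31 CG pairs, beside 7. On either strand, GC boxes (GGGCGG) were in 82.9% of member windows and 35.7% of all windows, CCAAT boxes in 51.2% and 37.4%, the motif of NRF1 in 19.5% and 4.60%, and TATAAA in 9.76% and 13.6%. The motif of heat shock factors was in 4.88% of member windows, both of Hnrnpa2b1, and in 0.603% of all. The interferon-stimulated response element, the cyclic AMP response element (TGACGTCA) and the YY1 motif were in 0 of the 41 member windows, beside 3.44%, 1.79% and 0.633% of all windows. These motifs were picked with the results known, and no match says only that the letters are not in these windows.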

How the data were processed

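RNA-seq was made from total RNA of 8 mice, 1 library each, with a stranded paired-end kit, per the labels' protocols. The deposited table holds whole-number gene counts and RPKM, made by the authors with CASAVA and TopHat2 version 2.1.0 on mm10, and DESeq2 and R version 3.4.1 are also named, per the submitters' processing notes. What counted the genes, on which annotation and with which strand setting was not given in the sources used here. All deposited RPKM values are scaled to the summed gene counts (ratio 1.00023 to 1.00024) and were used for levels between genes, for ratios and in 1 alternative.

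Counts were fitted in R version 4.3.3 with edgeR version 4.0.16, and limma was version 3.58.1. filterByExpr (minimum count 10, minimum total 15) left 20987 genes. After TMM scaling, sex and group entered the model of the robust quasi-likelihood test, with Benjamini-Hochberg adjustment over all tested genes and a threshold of 0.05; a second model added the product of sex and group. Differences are given as log2 of GFP-GR100 over GFP, with SE from the F statistic and 95% intervals from the fit. Libraries are from separate animals, no pair of a group agreed within sampling noise, and replicate numbers in accession order pair no animals. The script was tested on simulated data.

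Alternatives were median-of-ratios factors, limma-voom, DESeq2 version 1.42.0, log2(RPKM + 0.1) with limma-trend, no filter, a mean of at least 1 CPM, no sex covariate, the ribosomal share as covariate, a size threshold of 0.5 on the log2 scale, and leaving out each library or both GFP 3 and GFP-GR100 4. The interaction was also refitted without each library, and the other alternatives were applied to the related lists, choices made after seeing the data.

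Members and lists were chosen with earlier results of these data known. Full values are given for called members, filled to 12 by smallest p, for the highest and lowest of each family by RPKM, and for Hnrnpa1, Hnrnpa2b1, Hnrnpa3, Hnrnph1, Srsf1 and Srsf2; in each related list, for up to 4 called genes or that with the smallest p. Srsf4, Hnrnpu, Srsf3, the gene pairs, the motifs, the promoters printed and the test of sex were chosen after values were seen, as was the minimum match of 200 bases for copies, raised from a shorter one under which more members had copies. The family sums and gene pairs were first also tested and are given as descriptions only, since members were chosen with results known.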

Additional observations from a re-analysis of the deposited data

Results flagged for a closer look

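Among 62 groups of 4 libraries (31 members in 2 groups), 2 had a library whose gap to the nearest other exceeded Dixon's 95% critical share of the group's range, where chance gives about 1 in 20, or 3.1. Hnrnpl, the gene of a CA-repeat binding regulator, was at 169.7 CPM in GFP-GR100 4 and between 179.1 and 180.6 CPM in the other 3 GFP-GR100 libraries. Its relative Hnrnpll was at 53.3 CPM in GFP-GR100 4 and between 59.6 and 60.8 CPM in the others. GFP-GR100 4 also had the lowest summed excitatory neuron markers (3849 CPM), whose part in these values was not tested.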

How the results depend on the processing

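Of 527 refits of a member's log2 fold change, 492 kept its direction and side of the threshold, 34 changed sign and 1 (Hnrnpc with the ribosomal share as covariate, adjusted p 0.04998) passed the threshold, so that 1 member was then called lower. The sign changed for 12 members, all with a log2 fold change between -0.09 and 0.03 in the fit reported, and for none of the 4 with an unadjusted p under 0.05. Srsf3 was at 0.0023 with median-of-ratios factors, 0.0024 with DESeq2 and 0.0079 with no filter. With limma-trend on RPKM, Srsf3 was at 0.059, Srsf6 at 0.023, Srsf10 at 0.0023, Hnrnpr at 0.044, Hnrnpul1 at 0.0086 and Srsf2 at 0.030, and the members' median at 0.0227. With a mean of at least 1 CPM, Srsf3 was at 0.033, Hnrnpr at 0.018 and Srsf2 at 0.0013. Without both GFP 3 and GFP-GR100 4, Srsf3 was at 0.016, Hnrnpu at -0.0015, Hnrnpr at 0.0047, Hnrnpul1 at 0.00056, Hnrnpab at 0.0040 and Srsf2 at 0.0093, and the members' median at 0.000565. Leaving out each library gave -0.0058 to 0.079 for Hnrnpu, -0.066 to 0.00099 for Srsf6, -0.0017 to 0.065 for Srsf12, -0.051 to 0.037 for Hnrnpr, -0.016 to 0.151 for Srsf9, -0.113 to 0.0097 for Hnrnpul1, -0.012 to 0.109 for Hnrnpl, -0.058 to 0.0053 for Srsf2, -0.045 to 0.044 for Srsf3, -0.026 to 0.054 for Srsf7. The cause was not tested. In the related lists the calls were 1 higher (Cirbp) and 1 lower (Usp39) with DESeq2, 4 higher and 2 lower with no filter, and 2 higher and 3 lower with the ribosomal share as covariate, and leaving out a library gave 0 (without GFP-GR100 3) to 3 (without GFP 2, adding Clk1 and Clk4) higher. Over all genes the calls were 528 as reported, 924 with DESeq2, 1529 with no filter, 882 with the ribosomal share, 323 without GFP-GR100 2 and 329 without GFP-GR100 3. With each library left out in turn, and with the absolute log2 fold change of at least 0.5, 0 members were called. The sex by group test called 0 members under the alternatives run. No paired analysis was possible because the replicate numbers were given in accession order. Leaving out 1 library moved the log2 fold change by over 1.5 times for 26 of 31 members, the other 5 being Hnrnpc, Hnrnpdl, Hnrnph3, Srsf1 and Srsf5. With 4 animals a group and standard errors of 0.07 to 0.10, log2 fold changes as large as 0.29 did not pass the threshold.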
